A study of Mus musculus with 12 samples.

Results

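Six3os1, Gm26709, Vax2os, A930001A20Rik, Pax6os1 and Rmst are long noncoding genes that lie beside, or are related to, regulators of the developing eye and neural tube. They are 6 of the 54232 gene IDs counted in each library, and they were picked by name with their levels in the treatment groups already known. Their own differences between treatments are therefore given as values with no p, and the number of them called is printed beside the share of all genes called, with nothing read from it. All 6 passed the filter on low counts, as did 17721 genes in total. Each was set beside a coding gene. Six3, Six6, Vax2 and Pax6 were taken by name and position, Car2 and Nedd1 as the protein-coding genes nearest to A930001A20Rik and Rmst, and Sox2 because human RMST binds SOX2. These partners were also chosen with earlier results of these data known, and the study names Six3, Six6 and Vax2 among genes changed with lactate. Their adjusted p for the treatments therefore describe these libraries and are not an independent test.

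RNA was sequenced in bulk from eye organoids at day 7 of culture, grown from 1 mouse embryonic stem cell line that is heterozygous for a GFP knock-in at Rax, an eye field homeobox gene. LDHi+lactate organoids received 25 mM sodium L-lactate and, for 3 days, 20 µM GNE-140, which blocks lactate dehydrogenase, LDHi organoids received GNE-140 alone, and control organoids received neither; each group holds 4 libraries from independent experiments. The labels give lactate 12 h ahead of GNE-140, whereas the methods of the study give lactate in its presence. The knock-in is shared by all 3 groups, and the cell type field of the labels reads eye organoid in replicates 1 and 2 but retina progenitors in replicates 3 and 4.

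In the optic vesicle, homeobox transcription factors such as Six3, Six6, Vax2, Pax6 and Rax specify the eye field, divide the vesicle into retina, stalk and pigment epithelium, and keep retinal progenitors dividing. Many of these factor genes have a noncoding gene on the opposite strand or close by, often named with the suffix "os" for opposite strand. Such a long noncoding RNA is transcribed and spliced like a messenger RNA but has no long reading frame. Mouse Six3os1 has been described as acting with the SIX3 protein in the retina, and RMST as a neural RNA that works with SOX2 in human cells.

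Total counts were 29255114 to 42489921 per LDHi+lactate library, 22174002 to 46881759 per LDHi library and 25209097 to 48271386 per control library. The second set of replicates (3 and 4) was the shallower one, with 22174002 to 29919036 counts, against 37284585 to 48271386 in replicates 1 and 2. The markers of the optic vesicle and retinal progenitors were present in every group, and none of the 34 markers of 8 cell types was at 0.

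The promoters of 4 of the 6 genes are shown because the counts of 3 of them are set against a coding gene that starts nearby, and the transcript starts of Gm26709 and Rmst to show their first splice junctions. Promoters run from 250 bases before the start to 50 bases after it (RefSeq, GRCm38.p6, written 5′ to 3′ on the strand of the gene), and capitals mark the transcribed bases.
Six3os1, chr17:85618347-85618646, minus strand: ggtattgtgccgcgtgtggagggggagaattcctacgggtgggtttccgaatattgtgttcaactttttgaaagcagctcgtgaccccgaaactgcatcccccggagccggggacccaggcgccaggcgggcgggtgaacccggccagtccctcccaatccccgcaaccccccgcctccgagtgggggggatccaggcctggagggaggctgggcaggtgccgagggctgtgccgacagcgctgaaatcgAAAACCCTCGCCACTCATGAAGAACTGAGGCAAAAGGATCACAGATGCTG
Vax2os, chr6:83712152-83712451, minus strand: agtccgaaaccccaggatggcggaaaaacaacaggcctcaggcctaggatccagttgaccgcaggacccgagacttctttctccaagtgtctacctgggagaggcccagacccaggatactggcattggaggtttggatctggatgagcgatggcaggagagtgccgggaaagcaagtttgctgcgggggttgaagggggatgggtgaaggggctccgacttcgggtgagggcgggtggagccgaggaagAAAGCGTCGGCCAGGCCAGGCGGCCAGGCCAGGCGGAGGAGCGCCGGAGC
Pax6os1, chr2:105670281-105670580, minus strand: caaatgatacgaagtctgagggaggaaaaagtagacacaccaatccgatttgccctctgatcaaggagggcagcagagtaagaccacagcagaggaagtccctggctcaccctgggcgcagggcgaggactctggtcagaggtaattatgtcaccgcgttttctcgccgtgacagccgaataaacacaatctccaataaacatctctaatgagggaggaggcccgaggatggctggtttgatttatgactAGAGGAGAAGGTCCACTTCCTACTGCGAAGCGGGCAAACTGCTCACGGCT
A930001A20Rik, chr3:14970951-14971250, plus strand: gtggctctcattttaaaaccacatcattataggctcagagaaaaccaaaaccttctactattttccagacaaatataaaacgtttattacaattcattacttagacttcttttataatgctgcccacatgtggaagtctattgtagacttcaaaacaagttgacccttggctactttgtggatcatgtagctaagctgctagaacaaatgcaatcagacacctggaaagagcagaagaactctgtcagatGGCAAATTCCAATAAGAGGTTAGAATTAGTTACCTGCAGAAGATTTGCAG

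Each window was searched on both strands for TAATTA, the core bound by many homeodomain proteins, for TAATCC, the core bound by Otx proteins, and for TATAAA, the TATA box. Pax6os1 held TAATTA once, 108 bases before its start, where 5.29% of all 32851 promoter windows of the same length hold that motif. A930001A20Rik held TATAAA at 177 bases before its start and its reverse complement at 140 bases before, and 13.6% of all windows hold this motif on either strand. Neither Six3os1 nor Vax2os, shown at the first of its 2 RefSeq starts, held any of the 3 motifs, and TAATCC, present in 7.06% of all windows, was in none of the 4. The G and C content was 63% for Six3os1, 63% for Vax2os, 52.3% for Pax6os1 and 37% for A930001A20Rik, against a median of 52.7% over all promoters.

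The transcripts below are the GENCODE vM21 models that start farthest 5′, and capitals mark the 10 bases on each side of the first splice junction.
Gm26709, bases 213 to 362 of a transcript of 2 exons: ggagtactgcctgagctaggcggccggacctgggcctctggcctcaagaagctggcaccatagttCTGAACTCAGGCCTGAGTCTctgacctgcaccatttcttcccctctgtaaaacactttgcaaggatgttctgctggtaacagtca
Rmst, bases 1 to 150 of a transcript of 13 exons: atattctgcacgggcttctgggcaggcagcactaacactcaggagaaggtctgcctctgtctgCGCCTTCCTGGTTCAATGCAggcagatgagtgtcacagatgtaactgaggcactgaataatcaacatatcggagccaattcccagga

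Coordinates are those of GENCODE vM21 on GRCm38, the build that the labels name as mm10. Six3os1 (ENSMUSG00000093460, chr17:85600651-85618398, minus strand, 5 exons after merging of all transcripts) overlaps the body of Six3 by 4791 bases on the opposite strand and shares 106 exon bases with it. In RefSeq both genes start 2438 bases apart and point away from each other. Vax2os (ENSMUSG00000085794, chr6:83692806-83712201, minus strand, 7 exons) overlaps Vax2 by 938 bases with no shared exon base, and its start lies 937 bases inside the Vax2 gene. Pax6os1 (ENSMUSG00000086029, chr2:105536080-105670330, minus strand, 5 exons) overlaps Pax6 by 1431 bases in the same head-to-head way, again with no shared exon base. Gm26709 (ENSMUSG00000097010, chr12:72945807-72965931, plus strand, 4 exons) begins 908 bases past the end of Six6 on the same strand. A930001A20Rik (ENSMUSG00000098008, chr3:14971201-15002727, plus strand, 4 exons) is 70431 bases from Car2. Rmst (ENSMUSG00000112117, chr10:92071037-92165170, minus strand, 14 exons) is 519576 bases from Nedd1 and holds the microRNA genes Mir135a-2 and Mir1251 within its introns; mature microRNAs are not measured by these libraries.

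Whether the counts separate the strands decides what an antisense gene's value means. Of 156 genes whose exons lie wholly under exons of a gene on the other strand with at least 1000 counts, 154 (98.7%) held 0 counts, against 9448 of 20714 (45.6%) genes of the same annotated types, none coding for protein, with no shared exon. Bases shared between strands thus gave almost no counts to genes lying wholly under them. Whether the counting used strand is not stated, and the loss of counts by the genes above them was not measured. The check was read as counting that does not separate strands. On that reading the values of each pair come from exon bases that are not shared. A read over an unshared exon is then counted whichever strand it came from, so transcription of the other strand within it could not be told apart.

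**Figure D1:**
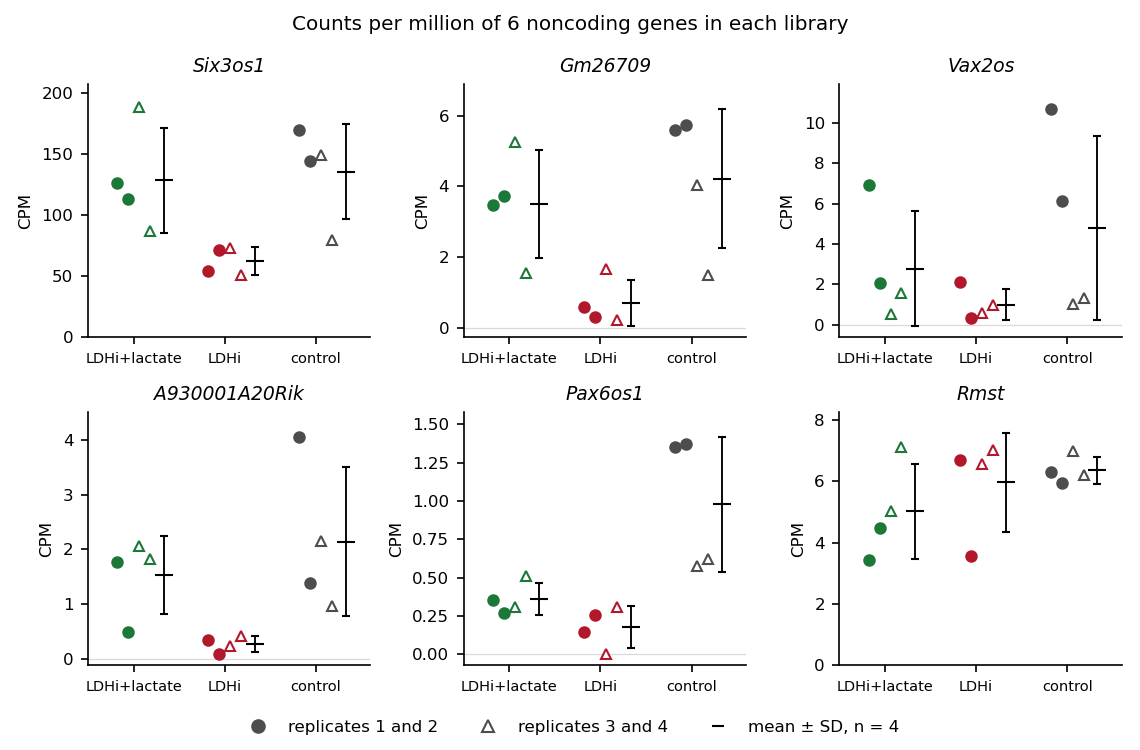
Level of each noncoding gene in CPM (counts per 1e+06 counts of the effective library size, on the vertical axis) in the 12 libraries, with filled circles for replicates 1 and 2, open triangles for replicates 3 and 4, and the mean ± SD of 4 libraries beside them; each panel has its own linear axis. The LDHi libraries of Six3os1, A930001A20Rik and Pax6os1 all lie below the control libraries, whereas those of Rmst run on both sides of the control range.

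Six3os1 was the most abundant of the 6 genes and was lower in LDHi organoids. Levels are in CPM, counts scaled by the effective size of each library. It had 126, 113, 188 and 86.8 CPM in LDHi+lactate libraries 1 to 4. It had 54.4, 71.6, 72.7 and 50.6 CPM in LDHi libraries, against 169, 144, 149 and 79.1 CPM in control libraries. All 4 LDHi libraries lay below every LDHi+lactate and every control library, while the LDHi+lactate and control libraries overlapped over most of their range. The log2 fold change was 1.04 for LDHi+lactate against LDHi, -1.12 (standard error 0.26) for LDHi against control, and LDHi+lactate differed from control by -0.08.

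Six3, a homeobox gene needed for the forebrain and the eye, followed the same order. It had 71.3, 67.1, 122 and 64 CPM in LDHi+lactate, 28, 39.6, 51.6 and 33 CPM in LDHi, and 111, 81.6, 105 and 55.5 CPM in control libraries. Six3 was lower in LDHi than in control organoids (log2 fold change -1.22, adjusted p = 0.0311, edgeR's quasi-likelihood test with Benjamini-Hochberg adjustment over all genes), a description of a partner chosen with earlier results known. This call was lost without LDHi replicate 1, 2 or 4 or control replicate 1 or 3 (adjusted p 0.076 to 0.1), and with the replicate number as a block it held without any 1 library (adjusted p up to 0.00555). Lactate gave a log2 fold change of 1.09 (adjusted p = 0.601 without the block), which passed with it (1.07, adjusted p = 0.0248); that call was lost without any 1 of the LDHi replicates 1 to 3 or of the 4 LDHi+lactate libraries (adjusted p 0.0594 to 0.137).

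The log2 ratio of Six3os1 to Six3 differed little between the treatment groups. In every group it was lower in replicates 3 and 4 than in replicates 1 and 2, with a difference of -0.27 between the sets. It averaged 0.66 ± 0.17 in LDHi+lactate, 0.73 ± 0.21 in LDHi and 0.61 ± 0.14 in control libraries (SD, n = 4 each). Within groups its pooled SD was 0.18, less than the 0.42 of Six3os1 and the 0.42 of Six3 alone, so that much of the spread between libraries of 1 group was common to both genes. Per kilobase of unshared exon, merged over all annotated transcripts, Six3os1 averaged 12.1, 5.88 and 12.8 CPM in LDHi+lactate, LDHi and control organoids, and Six3 15.7, 7.36 and 17.1 CPM, so that the noncoding gene was close to the coding gene on this scale.

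**Figure D2:**
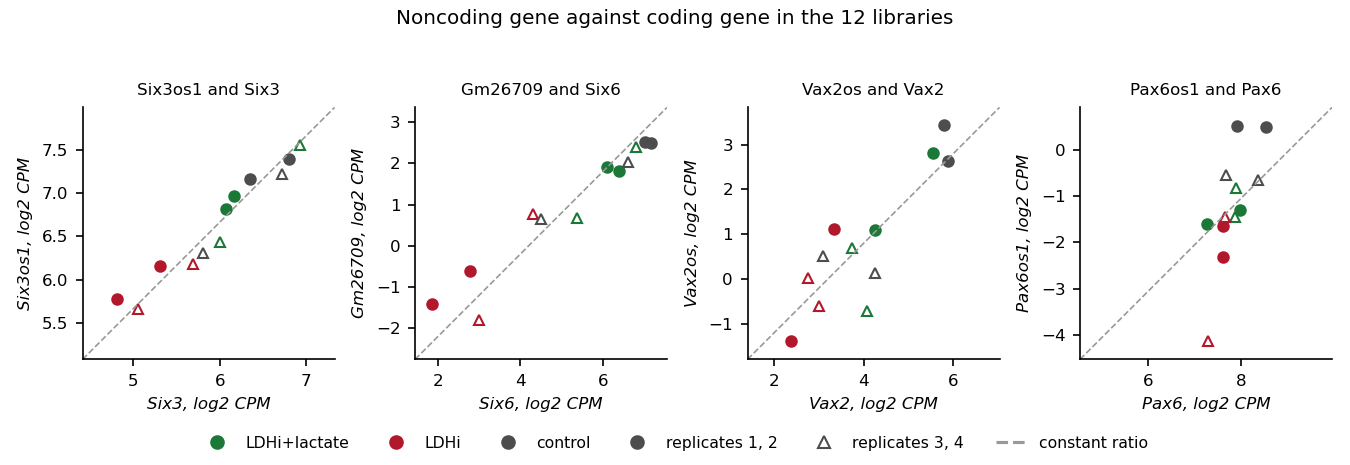
log2 CPM (prior count 2) of a noncoding gene (vertical) against its coding gene (horizontal) in each of the 12 libraries, coloured by group, with filled circles for replicates 1 and 2, open triangles for replicates 3 and 4 and a dashed line for a constant ratio. The points of Six3os1 keep to the line (pooled within-group SD of the ratio 0.18), while those of Vax2os (0.82) and Pax6os1 (0.74) scatter around it. Six3os1 had 1319 to 8259 counts per library, against 13 to 522 for Vax2os and 0 to 66 for Pax6os1. Counting error is larger at low counts, and its part in the scatter was not tested.

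Gm26709 was low in LDHi organoids, as was Six6 beside it. Gm26709 had 3.47, 3.73, 5.25 and 1.55 CPM in LDHi+lactate libraries, 0.6, 0.323, 1.66 and 0.23 CPM in LDHi libraries and 5.61, 5.73, 4.03 and 1.51 CPM in control libraries. LDHi replicate 3 was the highest of its group, above the lowest LDHi+lactate and control libraries, which were both replicate 4. Within every replicate number LDHi was below control, by a log2 difference between -3.93 and -1.25, and LDHi+lactate was above LDHi, by 1.63 to 3.32. LDHi against control was -3.62 in replicates 1 and 2 alone and -1.59 in replicates 3 and 4 alone. Over all libraries the log2 fold change was 2.37 for LDHi+lactate against LDHi, -2.64 (standard error 0.62) for LDHi against control, and LDHi+lactate differed from control by -0.28.

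Six6, a homeobox gene of the retina, pituitary and hypothalamus, had 84.3, 68.3, 113 and 41.4 CPM in LDHi+lactate libraries. It had 6.8, 3.55, 19.7 and 7.91 CPM in LDHi libraries, against 143, 130, 98.2 and 22.8 CPM in control libraries, so that no LDHi library reached the control range. Six6 was lower in LDHi than in control organoids (log2 fold change -3.40, adjusted p = 0.0150), a call that ended when LDHi replicate 2 was left out (adjusted p = 0.0508) and held with the block without any 1 library. It was -4.72 in replicates 1 and 2 alone and -2.16 in replicates 3 and 4 alone, and the edgeR interaction term of that difference, 2.58, did not pass over all genes (adjusted p = 0.89, unadjusted p = 0.0296). With lactate it had a log2 fold change of 3.04 (adjusted p = 0.481) without the block and was called higher with it (3.08, adjusted p = 0.0248), and the blocked call was lost without any 1 of LDHi replicates 1 to 3 or of the LDHi+lactate libraries (adjusted p 0.0566 to 0.123). The log2 ratio of Gm26709 to Six6 was -4.46 ± 0.22 in LDHi+lactate, -3.74 ± 0.71 in LDHi and -4.40 ± 0.36 in control libraries, which leaves the groups overlapping. Its pooled within-group SD of 0.48 was below that of Gm26709 (0.93) and of Six6 (0.98). Per kilobase, Gm26709 averaged 3.48 ± 1.51, 0.699 ± 0.652 and 4.2 ± 1.96 CPM in LDHi+lactate, LDHi and control organoids, where Six6 averaged 20.1, 2.48 and 25.8 CPM.

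Vax2os varied with the replicate set as well as with the treatment. It had 6.95, 2.05, 0.549 and 1.55 CPM in LDHi+lactate libraries, 2.11, 0.323, 0.598 and 0.96 CPM in LDHi libraries and 10.7, 6.14, 1.04 and 1.35 CPM in control libraries. In each group replicate 1 was the highest, and the LDHi range overlapped both others. The log2 fold change was 1.47 for LDHi+lactate against LDHi, -2.26 (standard error 0.89) for LDHi against control, and LDHi+lactate differed from control by -0.79. LDHi against control was -2.80 in replicates 1 and 2 alone and -0.62 in replicates 3 and 4 alone, a difference of 2.19 (standard error 1.25). With 1 library left out, the fold change ran between 0.47 and 2.18 for LDHi+lactate against LDHi and between -1.81 and -0.05 for LDHi+lactate against control.

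Vax2, a homeobox gene of the ventral retina, had 46.4, 19.1, 16.8 and 13.3 CPM in LDHi+lactate, 9.99, 5.15, 7.87 and 6.72 CPM in LDHi and 55.6, 59.2, 19 and 8.51 CPM in control libraries. Control replicate 4 was within the LDHi range. Vax2 had a log2 fold change of -2.26 for LDHi against control, which missed the threshold without the block (adjusted p = 0.0542, passing without LDHi+lactate replicate 1 or control replicate 4, at 0.0217 to 0.0412) and passed with it (-2.02, adjusted p = 0.00827), with a term for the set (-1.94, adjusted p = 0.0277) and with DESeq2 (-2.26, adjusted p = 0.000635). It was -2.92 in replicates 1 and 2 alone and -0.93 in replicates 3 and 4 alone, a difference of 2.01 whose interaction term did not pass over all genes (adjusted p = 0.89, unadjusted p = 0.0165). With lactate it was 1.69 above LDHi on the log2 scale and was not called (adjusted p = 0.170 with the block). The log2 ratio of Vax2os to Vax2 was -3.44 ± 0.92 in LDHi+lactate, -3.08 ± 0.74 in LDHi and -3.09 ± 0.79 in control libraries, and its pooled SD of 0.82 was smaller than that of Vax2os (1.39) and close to that of Vax2 (0.92).

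A930001A20Rik, whose nearest coding gene is Car2, had its lowest levels in LDHi organoids. It had 1.77, 0.486, 2.06 and 1.83 CPM in LDHi+lactate libraries, 0.336, 0.0861, 0.23 and 0.422 CPM in LDHi libraries and 4.05, 1.39, 2.15 and 0.967 CPM in control libraries. Every LDHi library was below every library of the other groups, with LDHi+lactate replicate 2 the nearest. The log2 fold change was 2.53 for LDHi+lactate against LDHi, -3.02 (standard error 0.61) for LDHi against control, and LDHi+lactate differed from control by -0.49. Car2, the gene of carbonic anhydrase 2, was not ordered this way. It had 34.7, 86.3, 48.5 and 39.4 CPM in LDHi+lactate, 26.5, 44.6, 57.5 and 39.9 CPM in LDHi and 30.1, 76, 32.3 and 37.2 CPM in control libraries (LDHi against control -0.06 on the log2 scale, adjusted p = 0.966). The ratio to Car2 thus carried the change of A930001A20Rik, with a difference of -2.69 on the log2 scale between LDHi and control libraries and a pooled SD of 1.28, above that of either gene alone (0.85 and 0.56).

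Pax6os1 had the lowest counts of the 6 genes, 235 in all 12 libraries. It had 0.35, 0.27, 0.309 and 0.507 CPM in LDHi+lactate libraries, from 9 to 15 counts each. It had 0.144, 0.258, 0 and 0.307 CPM in LDHi libraries, from 0 to 12 counts, against 1.35, 1.37, 0.576 and 0.619 CPM in control libraries, from 15 to 66 counts. The 0 counts of LDHi replicate 3 allow up to 0.138 CPM (3 counts, for counting error only). All LDHi and all LDHi+lactate libraries lay below the lowest control library, and LDHi and LDHi+lactate overlapped. The log2 fold change was 0.94 for LDHi+lactate against LDHi, -2.41 (standard error 0.58) for LDHi against control, and LDHi+lactate differed from control by -1.47.

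Pax6, the paired-box gene at the head of eye development, differed less. It had 252, 155, 233 and 238 CPM in LDHi+lactate, 195, 196, 156 and 200 CPM in LDHi and 373, 242, 331 and 205 CPM in control libraries, so that control libraries lay above the LDHi range, by little for replicate 4. Its log2 fold change for LDHi against control was -0.62 (adjusted p = 0.112), and -0.59 with the block (adjusted p = 0.0328), where the call was lost without LDHi replicate 1 or 3, LDHi+lactate replicate 1 or control replicate 1, 2 or 3 (adjusted p 0.0518 to 0.117). The log2 ratio of Pax6os1 to Pax6 was -9.05 ± 0.29 in LDHi+lactate, -9.93 ± 1.05 in LDHi and -8.18 ± 0.67 in control libraries. The LDHi values include -11.42 in replicate 3, where Pax6os1 had 0 counts and the prior count sets the ratio. LDHi replicates 1, 2 and 4 were at -9.93, -9.28 and -9.10. Paupar, a second noncoding gene near Pax6 that is known from mouse neural cells, lies within the body of Pax6os1 on the same strand with no shared exon base. Paupar had 0.373, 0.432, 0.515 and 0.541 CPM in LDHi+lactate, 0.096, 0.108, 0.23 and 0 CPM in LDHi and 1.29, 0.849, 0.384 and 0.426 CPM in control libraries, from 200 counts in all. It was lower in LDHi than in control organoids (log2 fold change -2.80, standard error 0.62, adjusted p = 0.0311). Without LDHi replicate 1, 2 or 4 or control replicate 1 or 3 the call was lost, at 0.0522 to 0.106. With the block (-2.81, adjusted p = 0.0109) it held without any 1 library. No LDHi library of Paupar reached the range of the other groups.

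Rmst had similar levels in the 3 groups. It had 3.43, 4.48, 5.04 and 7.13 CPM in LDHi+lactate libraries, 6.7, 3.57, 6.58 and 7.03 CPM in LDHi libraries and 6.31, 5.94, 6.99 and 6.19 CPM in control libraries. The 3 groups overlapped, and LDHi replicate 2 stood below the other LDHi libraries. The log2 fold change was -0.25 for LDHi+lactate against LDHi, -0.09 (standard error 0.25) for LDHi against control, and LDHi+lactate differed from control by -0.34. Its neighbour Nedd1, a gene of the mitotic spindle, had log2 fold changes of -0.03 for LDHi against control (adjusted p = 0.965) and lay between 46.6 and 66.9 CPM in all libraries.

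Sox2, a transcription factor of neural progenitors and pluripotent cells, did differ. It had 451, 463, 467 and 574 CPM in LDHi+lactate libraries, 568, 588, 602 and 682 CPM in LDHi libraries and 373, 350, 378 and 502 CPM in control libraries. It was higher in LDHi than in control organoids (log2 fold change 0.61, adjusted p = 0.0227), a call lost without LDHi replicate 2, 3 or 4 or control replicate 1 or 3 (adjusted p 0.057 to 0.08). With the block this call (0.62, adjusted p = 0.000112) held without any 1 library (adjusted p up to 0.000839). With the block it was also lower in LDHi+lactate than in LDHi (-0.32, adjusted p = 0.0248, lost without any 1 of LDHi replicates 1 to 3 or of the LDHi+lactate libraries, at 0.0757 to 0.129) and higher in LDHi+lactate than in control organoids (0.29, adjusted p = 0.0126, lost without LDHi+lactate replicate 2 or 4 or control replicate 3, at 0.0516 to 0.0531). The log2 ratio of Rmst to Sox2 was -6.63 ± 0.29 in LDHi+lactate, -6.71 ± 0.43 in LDHi and -5.95 ± 0.26 in control libraries.

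**Figure D3:**
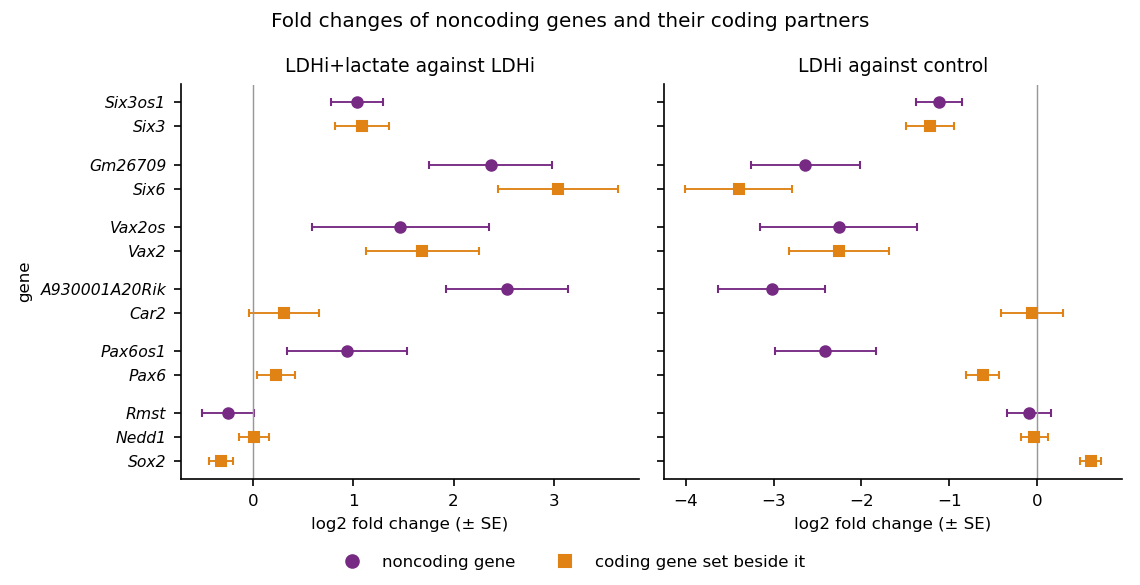
log2 fold changes with their standard errors (horizontal) of the noncoding genes (circles) and of the coding genes set beside them (squares), in the LDHi+lactate to LDHi comparison at left and the LDHi to control comparison at right, from the edgeR fit without the block. Six3os1, Gm26709 and Vax2os lie within 1 unit of Six3, Six6 and Vax2 in both comparisons, whereas A930001A20Rik at -3.02 and Pax6os1 at -2.41 lie below Car2 at -0.06 and Pax6 at -0.62 for LDHi against control.

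For LDHi against control, 4 of the 6 noncoding genes were called lower (5 with the block), where 2.18% of all genes tested were called lower (10.1% with the block); since this comparison was known when the genes were picked, nothing is read from this or the next counts. Without any 1 library the number called lower was 0 to 3. For LDHi+lactate against LDHi, edgeR without the block called none of the 6 and 0% of all genes, with 3 of the 6 and 603 of all genes at an unadjusted p under 0.05. With the block 3 of the 6 were called higher (0.57% of all genes), as with DESeq2 (0.299%). For LDHi+lactate against control none of the 6 was called by edgeR without the block (0% of all genes in either direction). None was called with the block (8.05%) or by DESeq2 (1.29%) either. In edgeR without the block, 1 of the 6 and 1653 of all genes had an unadjusted p under 0.05. Both comparisons with LDHi share the LDHi libraries, and both with control share the control libraries, so their values are not independent.

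The groups were ordered alike in most of these genes but not to the same extent. Six3os1, Gm26709, A930001A20Rik and Pax6os1 were lower in LDHi than in control and higher in LDHi+lactate than in LDHi within all 4 replicate numbers, although Pax6os1 in LDHi+lactate was above LDHi by only 0.05 on the log2 scale in replicate 2, and in replicate 3 the LDHi library held 0 counts. Vax2os was lower in LDHi in all 4 and higher with lactate in 3 of 4. In LDHi+lactate against control, Six3os1 and Gm26709 were lower in 2 of 4 replicate numbers, Vax2os and A930001A20Rik in 3 of 4, and Pax6os1 in 4 of 4. Rmst was lower in LDHi than in control in 2 of 4.

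Levels per kilobase of unshared exon rank the 6 genes across organoids. The divisor merges the exons of all annotated transcripts and is not the length of the transcript expressed. It is 4542 bases for Rmst and 1005 for Gm26709, where the transcripts shown above are 2679 and 599 bases long. Ranks of genes with close values can depend on this divisor. In control libraries Six3os1 (12.8 ± 3.68 CPM per kilobase) stood above Gm26709 (4.2 ± 1.96), which stood above A930001A20Rik (1.65 ± 1.05), Rmst (1.4 ± 0.0985), Vax2os (1.05 ± 1) and Pax6os1 (0.666 ± 0.3). In this order the neighbours among the last 4 differed by less than the larger of their SDs. In LDHi libraries the order was Six3os1 (5.88 ± 1.08), Rmst (1.31 ± 0.354), Gm26709 (0.699 ± 0.652), Vax2os (0.219 ± 0.173), A930001A20Rik (0.207 ± 0.112) and Pax6os1 (0.121 ± 0.0928). Rmst was second there, above Gm26709 by less than the SD of Gm26709. In LDHi+lactate libraries Six3os1 (12.1 ± 4.05) and Gm26709 (3.48 ± 1.51) were again first and second, ahead of A930001A20Rik (1.18 ± 0.547), Rmst (1.11 ± 0.343), Vax2os (0.609 ± 0.625) and Pax6os1 (0.244 ± 0.0707).

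The genes most like each noncoding gene were found by the root mean square difference of centred log2 CPM over the 12 libraries, leaving out the other 5; these libraries share their treatments and replicate sets, and the values are a description. For Six3os1 the closest of all genes tested was Six3 (difference 0.16, against an SD of 0.61 for Six3os1 itself), followed by Chrdl1, a chordin-like antagonist of BMP signaling (0.21), and Plekha1, a gene of a pleckstrin homology domain protein (0.25). Gm26709 was closest to F5, coagulation factor V (0.53), to Six6 (0.53, rank 2) and to Rax (0.54), with an SD of 1.46 of its own. For Vax2os (SD 1.44) the closest were the noncoding gene Gm29260 (0.62), Cd83, a surface protein of the immunoglobulin family (0.72), and Vax2 (0.73, rank 3). Each of these 3 noncoding genes thus had its coding neighbour among the 3 most similar genes.

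The other 3 did not. A930001A20Rik (SD 1.39) was closest to Egfem1 (0.53), to Abca4, a lipid transporter of photoreceptors (0.53), and to Stra6, a receptor for retinol-binding protein (0.54), while Car2 ranked 14525 (1.59). Pax6os1 (SD 1.19) was closest to Kcne1, a potassium channel subunit (0.65), Ppp1r3d, a regulatory subunit of protein phosphatase 1 (0.67), and the noncoding gene Gm26507 (0.67), with Pax6 at rank 461 (0.96). With 0 to 66 counts of Pax6os1 per library, counting error adds to these differences. Rmst (SD 0.36) was closest to Clybl (0.21), Nxn, the gene of nucleoredoxin (0.21), and Cbll1, a ubiquitin ligase (0.22), with Nedd1 at rank 566 (0.29) and Sox2 at rank 7437 (0.45).

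The contrast between replicates 3 and 4 and replicates 1 and 2 was not used to pick the genes and was tested. Its fit counts the 6 libraries of a set as independent, although each set holds only 2 replicate numbers. Libraries of the same number were correlated (0.329 to 0.634), so the standard errors and adjusted p of all calls between the sets can be too small. Vax2os was lower in replicates 3 and 4, with 0.549 to 1.55 CPM (median 0.998), against 0.323 to 10.7 CPM (median 4.13) in replicates 1 and 2, 6 libraries each. The log2 fold change of Vax2os was -1.90, with a standard error of 0.55 (adjusted p = 0.0249, edgeR with the group as a term), and the call was lost without LDHi replicate 1, LDHi+lactate replicate 1 or 3 or control replicate 1, 3 or 4 (adjusted p 0.0503 to 0.0715). Vax2 was lower as well (-1.10, standard error 0.36, adjusted p = 0.0425), in a call that was lost without LDHi replicate 1 or 4, LDHi+lactate replicate 1, 3 or 4 or any 1 of the control libraries (adjusted p 0.0568 to 0.12). Nedd1 was higher (0.34, standard error 0.06, adjusted p = 0.0022, called without any 1 library).

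The other 5 noncoding genes were not called between the sets. Six3os1 had a log2 fold change of -0.10 (adjusted p = 0.779), Gm26709 -0.12 (0.882), A930001A20Rik 0.14 (0.858), Pax6os1 -0.43 (0.529) and Rmst 0.38 (0.137). In all, 1 of the 6 was called lower, where 14.3% of all genes tested were called lower, 13.7% higher and 27.9% in either direction. The sets differ in depth and in the cell type that the labels name, and the part of each in the result was not tested. For a treatment effect that differed between the sets, edgeR called 0 of all genes in each of the 3 comparisons, where the p before adjustment was under 0.05 in 694 genes (LDHi against control), 239 genes (LDHi+lactate against LDHi) and 306 genes (LDHi+lactate against control).

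**Figure D4:**
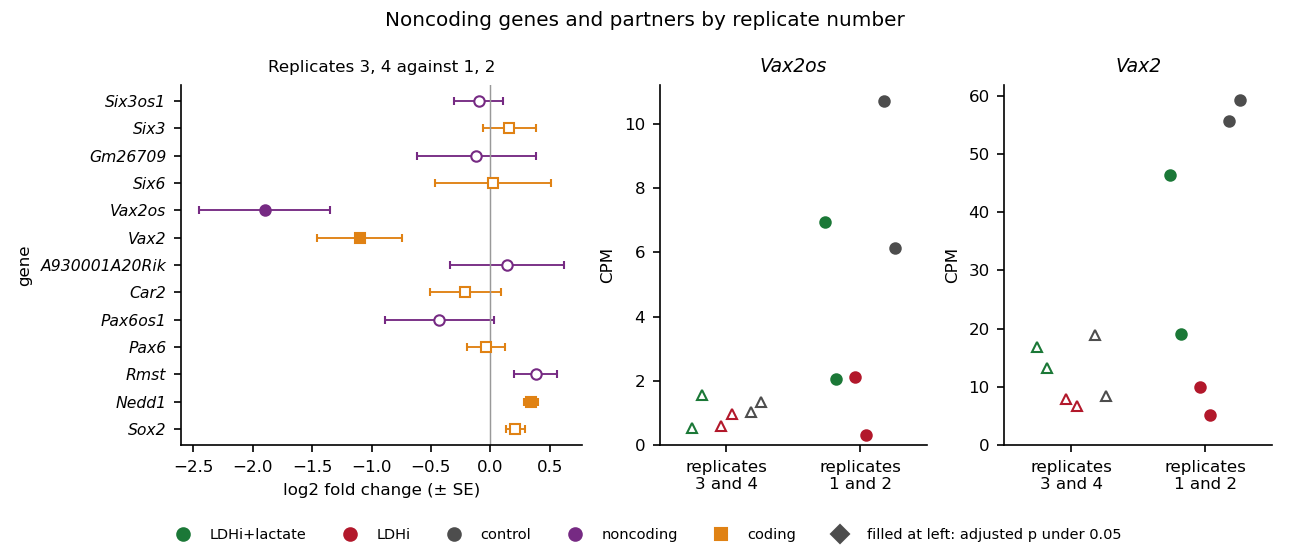
Left, log2 fold change with standard error (horizontal) of each noncoding gene (circles) and coding gene (squares) for replicates 3 and 4 against replicates 1 and 2, filled where the adjusted p is under 0.05. Centre and right, CPM of Vax2os and Vax2 in each library of the replicate sets by group. Vax2os at -1.90 and Vax2 at -1.10 lie below 0, and the libraries with the highest values of both genes are replicates 1 and 2.

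Of 87 other genes with a body within 250 kb of one of the 6, 31 passed the filter on low counts. For LDHi against control, 4 of these 31 were lower and 0 higher (8 and 0 with the block), where 2.18% of all genes were called lower and 0.909% higher (10.1% and 9.85% with the block); the median log2 fold change of the 31 was -0.20, against 0.01 over all genes tested. The 4 were Six3, Six6, Paupar and Car3, a carbonic anhydrase gene of muscle and fat that lies 98678 bases from A930001A20Rik. Six3 and Six6, like the Vax2 and Pax6 added by the block, are coding partners chosen with earlier results known. The counts and the median of the 31 therefore partly restate that choice. Car3 averaged 1.58 ± 0.525 CPM in LDHi, against 4.41 ± 1.58 CPM in control organoids (log2 fold change -1.48, standard error 0.35, adjusted p = 0.0419, called without LDHi+lactate replicate 2 or 3 or control replicate 4 and lost without any 1 of the others, at 0.0557 to 0.118). With the block the Car3 call (-1.46, adjusted p = 0.00246) held without any 1 library. The block added Vax2, Pax6, Six2, a homeobox gene of kidney and face 65879 bases from Six3os1 (-1.71, adjusted p = 0.039, lost in 6 of 12 fits with a library left out), and Rcn1, a calcium-binding protein of the endoplasmic reticulum (-0.19, adjusted p = 0.0483, lost in 11 of 12). Among the others, Elp4 beside Pax6os1 was not called (-0.15, adjusted p = 0.554).

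For LDHi+lactate against LDHi, 0 of the 31 neighbours were called by edgeR without the block (0% of all genes), with 4 at an unadjusted p under 0.05. Six3 and Six6 were higher with the block and with DESeq2, where 0.57% and 0.299% of all genes were called higher. Between the sets, 5 were lower and 3 higher in replicates 3 and 4, near the background of 27.9%. Of these 8, Vax2, Dguok, Ankrd53, Nagk, Tet3 and Zfp638 lie around Vax2os. Tet3, an enzyme that oxidises methylcytosine (0.50, adjusted p = 0.0384), and Zfp638, a zinc finger gene (0.28, adjusted p = 0.00704), were higher, and Dguok, a mitochondrial kinase (-0.30, adjusted p = 0.0327), Nagk, a sugar kinase (-0.31, adjusted p = 0.0423), and Ankrd53 (-1.26, adjusted p = 0.0482) were lower. The call of Zfp638 held without any 1 library, whereas those of Tet3 and Dguok were each lost in 8 of 12 fits with a library left out, that of Nagk in 10 of 12 and that of Ankrd53 in 8 of the 10 fits that tested it.

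Other noncoding genes within 5 kb of 76 developmental regulators show how usual such changes were. The list held 57 genes, of which 31 passed the filter on low counts. For LDHi against control 2 were lower and 0 higher, where 2.18% of all genes were called lower and 0.909% higher. With the block 6 were lower and 1 higher, where 10.1% of all genes were called lower and 9.85% higher. The median log2 fold change of the list was -0.34 without the block, against 0.01 over all genes. The 1 higher was B230323A14Rik, over the forkhead gene Foxb1 (1.25, adjusted p = 0.0484, lost in 11 of 12 fits with a library left out), named after its values were seen. 2700033N17Rik, beside the homeobox gene Meis2, was lower at a log2 fold change of -1.42 (adjusted p = 0.0125), and 2610027K06Rik, beside the T-box gene Tbx2, at -4.08 (adjusted p = 0.0228, lost without any 1 of the LDHi libraries or control replicate 1 or 3). With the block the call of 2610027K06Rik (-3.85, adjusted p = 0.00308) held without any 1 library. This gene had 155 counts in all 12 libraries, with 0.048, 0.0431, 0 and 0.0384 CPM in LDHi libraries. Its LDHi level is thus at the floor, it passed the filter on low counts through the other groups, and its values are a description. Raxos1, opposite Rax, had a log2 fold change of -2.29 (adjusted p = 0.0879, and 0.0379 with the block, lost in 10 of 12 fits with a library left out), and Otx2os1, opposite Otx2, -0.52 (adjusted p = 0.701). For LDHi+lactate against LDHi none of the 31 was called by edgeR with or without the block or by DESeq2 (0.638%, 0% and 0.31% of all genes in either direction). Without the block 4 of the 31 had an unadjusted p under 0.05.

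Between the sets, 3 of these 31 were lower and 1 higher, where 14.3% of all genes tested were called lower and 13.7% higher. Among those lower in replicates 3 and 4 were Sox1ot, over the neural gene Sox1 (-1.40, adjusted p = 0.00222), and Gm27197, over Lhx2 (-1.03, adjusted p = 0.0420, lost in 10 of 12 fits with a library left out). C130021I20Rik, beside Lmx1b, was higher (1.73, adjusted p = 0.00354). With the block it was lower in LDHi than in control organoids (-1.41, adjusted p = 0.00171, called without any 1 library), but not without the block (-1.67, adjusted p = 0.258). It was also lower with the block in LDHi+lactate than in control organoids (-1.25, adjusted p = 0.0126, lost without LDHi+lactate replicate 4). LDHi+lactate against LDHi was 0.16 with the block (adjusted p = 0.853). Among all 1245 noncoding genes of these types that were tested, 2.09% were called for LDHi against control, 13 lower and 13 higher, against 3.44% of 14966 protein-coding genes.

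Levels of cell type markers moved with the groups. The summed level of the 5 optic vesicle and retinal progenitor markers (Rax, Six3, Six6, Lhx2 and Pax6, 3 of which are coding genes described above) was 581 to 840 CPM in LDHi+lactate, 409 to 501 CPM in LDHi and 569 to 1157 CPM in control libraries, with no overlap between LDHi and the other groups. That of 4 pigment epithelium markers was 69 to 434, 19.4 to 155 and 141 to 909 CPM, and that of 4 pluripotency markers 312 to 691, 378 to 721 and 136 to 300 CPM, in the same order of groups. The sums for telencephalon (84.3 to 198, 136 to 368 and 109 to 217 CPM), midbrain and hindbrain (39.9 to 97.1, 61.5 to 105 and 46.9 to 140 CPM), neurons (85.4 to 407, 134 to 574 and 95.2 to 523 CPM), neural crest and mesenchyme (19.4 to 53.2, 25.1 to 35.9 and 33.3 to 217 CPM) and mesoderm and endoderm (71.7 to 140, 78.6 to 166 and 43.8 to 135 CPM) overlapped between all groups. The part of these markers in the values of the noncoding genes was not tested, and in bulk RNA fewer cells of a type and less RNA per cell cannot be told apart.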

How the data were processed

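Bulk RNA was sequenced from 12 libraries of mouse eye organoids, extracted with RNeasy kits and prepared with TruSeq mRNA kits (50 bp single reads). Per the labels, reads were trimmed with cutadapt 1.13, aligned to mm10 with STAR and counted with HTSeq 0.6.1p1, and DESeq2 1.14.1 is also named. STAR's version, the release of the annotation and whether the counting used strand: not given in the sources used here. The authors deposited raw counts per Ensembl gene, with no normalization. Of 54232 gene IDs, 54079 (99.7%) were matched to GENCODE vM21 for symbols and positions.

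Groups and replicate numbers came from the labels. The test was edgeR 4.0.16 (R 4.3.3), quasi-likelihood, with TMM scaling, filterByExpr with the group (17721 genes) and all 12 libraries in 1 fit, with Benjamini-Hochberg adjustment over all genes and calls at an adjusted p under 0.05. CPM use effective library sizes, and log2 CPM a prior count of 2. Levels were divided by exon bases that no other gene shares. The 6 genes, their coding partners and the lists were chosen with earlier results of these data known. The genes named are the 6, their partners, called genes within 250 kb, the 3 most similar genes of each, and up to 4 called and 2 other genes of the list of noncoding genes beside 76 regulators.

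The labels give the same replicate numbers in each group. Deviations from the group means correlated between libraries of the same number at 0.329 to 0.634 (12 pairs, across genes) and between other numbers of the same set at -0.22 to 0.197 (12 pairs). The study itself does not state that the numbers pair the libraries. The main fit, with its fold changes, standard errors and counts of calls, ignores such pairing, and so does the contrast between the sets. A model that has the replicate number as block takes this pairing up for the treatments, and its values are given where they changed a call. With the block the standard errors of the 6 for LDHi against control were smaller, such as 0.15 against 0.26 for Six3os1. The alternatives were DESeq2 1.42.0, RLE size factors, library totals, no filter, a minimum of 10 counts in every library, the groups compared alone, the block, a term for the set, either set alone, a log2 fold change of at least 1, each library left out, prior counts of 0.5 and 5 and windows of 100 and 500 kb; leaving out a library with the block, and the block for the lists, were added after seeing the data. The marker sums leave out 2 markers of the lists, and these and a few other genes are not reported here. The edgeR step was run on simulated data. For LDHi against control it called 58 of 100 genes changed by 1 on the log2 scale and 95 of 100 changed by 2. There were 8 false calls. The simulated libraries were independent, with no shared effect of the replicate number, and only genes above 1 CPM were changed. The result thus does not cover paired libraries or genes of low counts. Sequences were read from RefSeq (GRCm38.p6) and GENCODE vM21 tables, and promoters of 4 of the 6 genes were matched by symbol. Limits from counts cover counting error only, since the reads carry no molecular identifiers.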

Additional observations from a re-analysis of the deposited data

Results flagged for a closer look

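In groups of 4 libraries, 5 of 39 gene and group combinations had 1 library farther from the rest than Dixon's critical value allows, where chance gives about 1 in 20. Rmst was at 3.57 CPM in LDHi replicate 2, against 6.58 to 7.03 CPM in the other LDHi libraries. Six3 was at 122 CPM in LDHi+lactate replicate 3, against 64 to 71.3 CPM in the others of that group, and Six3os1 in the same library, at 188 CPM, was also the highest of its group. Car2 was at 76 CPM in control replicate 2, against 30.1 to 37.2 CPM. Pax6 was at 156 CPM in LDHi replicate 3, against 195 to 200 CPM, in the library where Pax6os1 had 0 counts. Sox2 was at 574 CPM in LDHi+lactate replicate 4, against 451 to 467 CPM. No cause was tested.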

How the results depend on the processing

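Of the noncoding genes, 4 were called lower for LDHi against control, which became 1 with at least 10 counts in every library, where the other 3 were no longer tested, 2 with only the groups compared, and 0 in replicates 1 and 2 alone or replicates 3 and 4 alone, where fewer libraries are tested. Of the coding partners, 3 were called, which became 5 with DESeq2 or the replicate block and 0 in either set alone. With lactate, DESeq2 and the replicate block each called 3 noncoding genes, and 2 and 3 partners, against 0 and 0. For LDHi+lactate against control the replicate block called 1 partner, against 0. With the replicate block the genes within 250 kb called became 8 for LDHi against control and 2 with lactate, and the noncoding genes beside regulators 7 for LDHi against control, with 1 in the comparison of LDHi+lactate with control. Between the sets, a log2 fold change of at least 1 left 1 partner of 2, and windows of 100 and 500 kb gave 3 and 16 genes against 8.

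With 1 library left out, noncoding genes called for LDHi against control ranged from 0 to 3 without the replicate block and from 4 to 5 with it, and partners from 0 to 4 and from 4 to 5. With lactate, both counts were 0 without the block, and with it ranged from 0 to 3 noncoding genes and from 0 to 4 partners. For LDHi+lactate against control partners ranged from 0 to 1 with the block, and between the sets noncoding genes from 0 to 1 and partners from 1 to 2. The log2 ratio of Gm26709 to Six6, 0.66 higher in LDHi than in control, was 1.26 in replicates 1 and 2 alone and 0.07 in replicates 3 and 4 alone, and the other ratios moved by less than their pooled SD. No fold change of a named gene that was called turned its sign. For single genes, 32 values lost their call and 60 gained one under an alternative, and 4 fold changes without a call moved by more than the spread. The causes were not tested. Depth limits Pax6os1 most, with at most 66 counts in a library.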
